A study of Rattus norvegicus with 11 samples.

Results

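The CD300 receptors are a family of immunoglobulin-like proteins on the surface of blood cells, and their genes were followed here in white blood cells (WBCs) of rats with collagen-induced arthritis (CIA). Members were all rows of the deposited gene table whose symbol starts with Cd300, which gave 7 of 32623 genes: Cd300a, Cd300lf, Cd300lb, Cd300e, Cd300c2, Cd300le and Cd300lg. The rule uses the gene name alone, but the family was chosen by reference to earlier results on these 11 samples, so the levels and tests of its members are a description and no independent evidence. Blood was drawn a first time from 4 CIA rats at NAMPT++ status, near day 8, and a second time at NAMPT+ status, near day 14, and 3 normal rats served as healthy controls. All animals were male Wistar rats 7 weeks old, and the CIA rats of both statuses had been injected with type II collagen in incomplete Freund's adjuvant (IFA-CII), with a boost on day 7. The authors set the status of each CIA sample by their own PCR of Nampt, so status and time after immunisation cannot be told apart. In the deposited RNA-seq values Nampt itself stood at 30.9 ± 15.3 FPKM at NAMPT++ status (SD, n = 4), 22.5 ± 11.8 FPKM at NAMPT+ status (n = 4) and 22.2 ± 9.80 FPKM in controls (n = 3). FPKM is a count of sequenced fragments scaled by the length of the gene and by the total of the sample. Comparing genes by FPKM therefore rests on the lengths used.

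CD300 proteins have a single immunoglobulin-like domain outside the cell and occur mainly on myeloid cells, that is monocytes, macrophages, dendritic cells, granulocytes and mast cells. Several of them bind lipids that dying cells expose, such as phosphatidylserine, phosphatidylethanolamine, ceramide or sphingomyelin. The family is paired: Cd300a and Cd300lf have long tails with ITIMs, tyrosine motifs that recruit the phosphatases Ptpn6 and Ptpn11 and restrain the cell, whereas Cd300lb, Cd300e and Cd300c2 have short tails and signal through the adaptors Tyrobp or Fcer1g, which carry activating ITAM motifs read by the kinase Syk.

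The samples held 65340027 to 85819418 counted reads each. Transcripts of 11 haemoglobin genes took 6.84 to 37.3% of the reads at NAMPT++ status, 14.8 to 42.8% at NAMPT+ status and 16.2 to 30.9% in controls, although red cells had been lysed. The group means of each member detected in all samples are therefore also given after rescaling. This scales the FPKM of a sample to its total without the haemoglobin genes, and is called rescaled FPKM below. One text deposited with the samples names retinas as the tissue, but the source and cell type labels name peripheral leukocytes. All 8 retina genes looked at had a mean FPKM under 1, with Crx, Nrl and Rpe65 at 0 in every sample, while all 5 pan-leukocyte genes were present, with a summed rescaled FPKM between 2916 and 3861. In bulk RNA, fewer cells of a type and less RNA per cell cannot be told apart, and this holds for every level below.

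All 7 members lie on chromosome 10 in the deposited table, for which a genome build was not given in the sources used here. The table places 5 of them within 249123 bases (chr10:103438303-103687425), in the order Cd300a (ENSRNOG00000057058), Cd300lb (ENSRNOG00000036728), Cd300le (ENSRNOG00000042825), Cd300e (ENSRNOG00000036726) and Cd300lf (ENSRNOG00000021424). Cd300a lies on the plus strand and the other four of this run lie on the minus strand. Cd300c2 (ENSRNOG00000046216, chr10:104975877-105051965, plus strand) is placed 1288452 bases further on, and Cd300lg (ENSRNOG00000020837, chr10:89976547-89994776, plus strand) lies far away on the other side. A pair of unnamed genes sits within the run. AABR07030771, which RefSeq lists as Cd300ld, held at most 6 reads in any sample, and AABR07030773 held 0 reads in all 11. In the newer RefSeq assembly GRCr8, which lists 15 genes with CD300 symbols, 3 of them pseudogenes, Cd300c2 stands within the run, between Cd300c and Cd300le, so its place differs between the 2 annotations.

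RefSeq gives promoters for 5 members in GRCr8, and the 250 bases before the start of 4 of them are shown, namely both members with inhibitory tails, Cd300a and Cd300lf, and Cd300lb and Cd300c2, the pair of members whose levels ran most strongly against each other over the samples. Capitals mark AGGAAG, a core of the sites bound by PU.1 and other ETS factors of myeloid cells, or its reverse complement CTTCCT. All are written on the strand of the gene, with Cd300a at chr10:100428576-100428825 on plus, Cd300lf at chr10:100875023-100875272 on minus, Cd300lb at chr10:100473805-100474054 on minus and Cd300c2 at chr10:100757321-100757570 on minus.
Cd300a: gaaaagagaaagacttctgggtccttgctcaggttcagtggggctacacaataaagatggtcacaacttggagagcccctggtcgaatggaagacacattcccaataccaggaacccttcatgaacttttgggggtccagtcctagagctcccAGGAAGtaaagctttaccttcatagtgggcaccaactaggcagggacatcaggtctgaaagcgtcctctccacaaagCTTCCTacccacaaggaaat
Cd300lf: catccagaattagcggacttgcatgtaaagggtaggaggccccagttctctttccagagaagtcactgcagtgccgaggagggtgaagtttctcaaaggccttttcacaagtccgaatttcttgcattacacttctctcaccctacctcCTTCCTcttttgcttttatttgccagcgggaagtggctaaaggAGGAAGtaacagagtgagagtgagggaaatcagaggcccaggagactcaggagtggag
Cd300lb: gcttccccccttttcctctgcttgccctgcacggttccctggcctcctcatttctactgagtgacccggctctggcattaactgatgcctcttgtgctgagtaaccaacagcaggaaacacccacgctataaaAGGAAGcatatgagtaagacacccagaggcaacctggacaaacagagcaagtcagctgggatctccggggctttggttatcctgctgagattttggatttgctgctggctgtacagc
Cd300c2: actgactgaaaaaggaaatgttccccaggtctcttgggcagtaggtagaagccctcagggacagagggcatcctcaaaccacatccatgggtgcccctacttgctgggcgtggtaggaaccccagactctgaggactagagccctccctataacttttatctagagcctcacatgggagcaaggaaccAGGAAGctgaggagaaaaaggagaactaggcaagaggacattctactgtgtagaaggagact
The motif was found on either strand in 5 of 5 member promoters, Cd300e included, and in 29.5% of the 33469 rat promoters of this length. It lay 97 and 20 bases before the start of Cd300a, 101 and 58 before Cd300lf, 117 before Cd300lb and 62 before Cd300c2. A C/EBP motif (TTNNGCAA) was in 0 of 5 member promoters against 9.22% of all, an AP-1 motif (TGANTCA) in 0 of 5 against 6.34%, and a STAT motif (TTCNNNGAA) in 0 of 5 against 7.67%. A match to letters is no binding site, and a missing match says only that these letters are not in the window.

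Reads of 6 members were detected in all 11 samples and covered a wide range of levels. Cd300le was the highest on average, with 45.3 FPKM over the 11 samples, followed by Cd300a with 33.2, Cd300c2 with 20.8, Cd300lb with 6.79, Cd300lf with 5.84 and Cd300e with 1.10 FPKM. This order rests on the gene lengths used for FPKM and is not one of reads. Cd300lb had 832 to 6289 reads at NAMPT++, 1251 to 3569 at NAMPT+ and 2038 to 2328 in controls. Cd300le had 2637 to 5044, 1168 to 3325 and 1125 to 1845 reads. Neighbours in the FPKM order were close for some pairs. Cd300le exceeded Cd300a in 7 of 11 samples, Cd300a exceeded Cd300c2 in 9, Cd300c2 exceeded Cd300lb in 10 and Cd300lb exceeded Cd300lf in 7, whereas Cd300lf exceeded Cd300e in all 11. Each of the first 4 pairs thus overlapped in the spread between samples. Cd300lg, known from endothelium and epithelium rather than leukocytes, had 4 reads in rat 1 at NAMPT+ status and 0 elsewhere, that is in 10 samples, where a count of 0 allows up to 3 reads (counting error only).

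**Figure D1:**
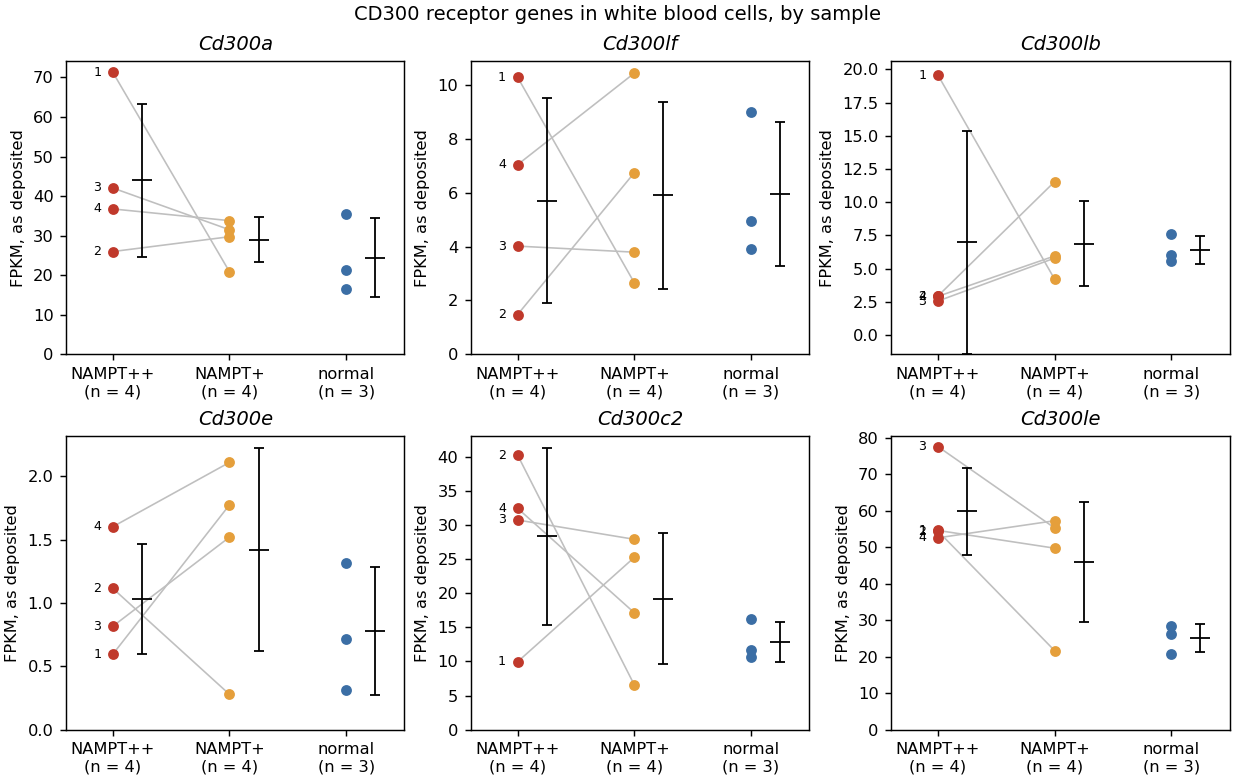
FPKM as deposited of the 6 detected members (vertical axes) in the NAMPT++, NAMPT+ and normal groups. Each point is a sample, grey lines join the samples of one rat, numbers name the rat, and black bars are mean ± SD. All 4 NAMPT++ samples lie above the 3 controls for Cd300le, at 52.6 to 77.6 against 20.7 to 28.4 FPKM, and in no other panel are 2 groups apart.

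Among the members with inhibitory tails, Cd300a binds phosphatidylserine and phosphatidylethanolamine and is found on most myeloid cells. Its FPKM in the NAMPT++ samples of rats 1 to 4 was 71.3, 26.0, 42.1 and 36.8. In the NAMPT+ samples of the same rats it was 20.9, 29.8, 31.5 and 33.8, and in the controls 21.2, 35.6 and 16.6. Rat 1 at NAMPT++ status was the highest of all 11 samples, and every pair of groups overlapped. Group means were 44.0 ± 19.4 at NAMPT++, 29.0 ± 5.65 at NAMPT+ and 24.5 ± 9.91 FPKM in controls, and 52.6 ± 16.9, 39.6 ± 9.74 and 33.9 ± 16.1 after rescaling.

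Cd300lf, a receptor for ceramide and sphingomyelin on granulocytes and monocytes, differed widely between samples of one group. It stood at 10.3, 1.48, 4.01 and 7.03 FPKM in NAMPT++ samples of rats 1 to 4, at 2.66, 6.73, 3.79 and 10.4 FPKM in their NAMPT+ samples, and at 4.93, 8.97 and 3.91 FPKM in controls. The group means were 5.70 ± 3.80, 5.90 ± 3.47 and 5.94 ± 2.68 FPKM, and 6.51 ± 3.70, 8.06 ± 4.58 and 8.23 ± 4.28 after rescaling. Within rats, it was lower at NAMPT+ than at NAMPT++ status in 2 of 4.

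Of the members with activating adaptors, Cd300lb showed the largest spread relative to its mean at NAMPT++ status, with an SD of 120% of the mean. Rat 1 had 19.6 FPKM and rats 2 to 4 had 2.92, 2.56 and 2.94 FPKM. NAMPT+ samples had 4.21, 5.95, 5.79 and 11.5 FPKM and controls 7.60, 5.56 and 6.06 FPKM. The mean of 7.00 ± 8.38 FPKM at NAMPT++ status therefore rested on rat 1, since the other 3 rats lay below all NAMPT+ samples and all controls. The means of the other groups were 6.87 ± 3.21 at NAMPT+ and 6.41 ± 1.07 FPKM in controls. In rat 1 the level at NAMPT+ status was 0.215 times that at NAMPT++ status, and in rats 2 to 4 it was 2.04, 2.26 and 3.92 times as high. After rescaling, the group means were 8.01 ± 8.69 at NAMPT++, 9.18 ± 3.52 at NAMPT+ and 8.72 ± 1.92 FPKM in controls. The NAMPT++ mean, the highest as deposited, was then the lowest.

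Cd300e, an activating receptor of monocytes, was the lowest of the detected members. Its FPKM was 0.594, 1.11, 0.815 and 1.60 at NAMPT++ status, 1.77, 0.278, 1.52 and 2.11 at NAMPT+ status, and 0.312, 0.712 and 1.31 in controls. All groups overlapped, with means of 1.03 ± 0.436, 1.42 ± 0.799 and 0.779 ± 0.504 FPKM, and 3 of 4 rats had more at NAMPT+ than at NAMPT++ status, rat 2 being the exception. Rescaled means were 1.29 ± 0.558, 1.80 ± 0.921 and 1.02 ± 0.561 FPKM.

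Cd300c2, which pairs with activating adaptors on myeloid cells, was lowest at NAMPT++ status in rat 1, the rat in which Cd300lb was highest. It stood at 9.95 FPKM in rat 1 at NAMPT++ status and at 40.3, 30.8 and 32.5 FPKM in rats 2 to 4. At NAMPT+ status it was 25.3, 6.56, 27.9 and 17.2 FPKM, and in controls 11.7, 16.3 and 10.7 FPKM. Rat 1 lay below all controls at NAMPT++ status, while the other 3 rats lay above them, so the groups overlapped through this 1 sample. Means were 28.4 ± 13.0 at NAMPT++, 19.2 ± 9.61 at NAMPT+ and 12.9 ± 2.97 FPKM in controls. After rescaling, the Cd300c2 means were 37.2 ± 21.9 at NAMPT++, 24.99 ± 11.2 at NAMPT+ and 17.7 ± 5.45 FPKM in controls. In the deposited annotation Cd300c2 shares 5014 bases on the same strand with RGD1559482, an immunoglobulin-like gene of the same region at 14.2 to 52.6 FPKM, and how reads of near-identical or overlapping genes were assigned is not given in the sources used here, so the split between them is uncertain. The sum of both was 61.7 ± 17.9 at NAMPT++, 43.8 ± 15.7 at NAMPT+ and 41.8 ± 14.1 FPKM in controls, and these groups overlapped.

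Cd300le, a rodent member of the family whose partners are less well described, was the only member without overlap between 2 groups. Its FPKM at NAMPT++ status was 54.6, 54.4, 77.6 and 52.6 in rats 1 to 4, against 20.7, 28.4 and 26.2 in controls. At NAMPT+ status it was 49.8, 21.7, 55.3 and 57.3, with rat 2 among the controls and the other 3 rats above them. Means were 59.8 ± 11.9, 46.0 ± 16.5 and 25.1 ± 3.96 FPKM at NAMPT++, at NAMPT+ and in controls. After rescaling they were 74.9 ± 20.2, 60.0 ± 14.8 and 34.0 ± 6.16 FPKM, again with no overlap between NAMPT++ samples and controls.

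Over the 6 detected members together, the summed level was 146 ± 19.1 FPKM at NAMPT++ status (126 to 166), 108 ± 27.7 FPKM at NAMPT+ status (70.9 to 132) and 75.6 ± 17.2 FPKM in controls (64.8 to 95.5). The rescaled sum was 181 ± 25.9 at NAMPT++ (145 to 201), 144 ± 14.7 at NAMPT+ (124 to 155) and 104 ± 31.2 FPKM in controls (77.4 to 138). Cd300le, Cd300a and Cd300c2 made up most of it in each sample, and Cd300e at most 2.03%. The make-up of single samples differed. In rat 1 at NAMPT++ status Cd300a took 42.9%, Cd300lb 11.8% and Cd300c2 5.98% of the sum, whereas in rats 2 to 4 at this status Cd300c2 took 19.5 to 31.9% and Cd300lb 1.62 to 2.31%. It also differed between the 2 samples of a rat. Cd300c2 took 24.2% in rat 1 at NAMPT+ status, and in rat 2 its share was 31.9% at NAMPT++ and 9.25% at NAMPT+ status, where Cd300a took 20.6% and 41.9%.

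**Figure D2:**
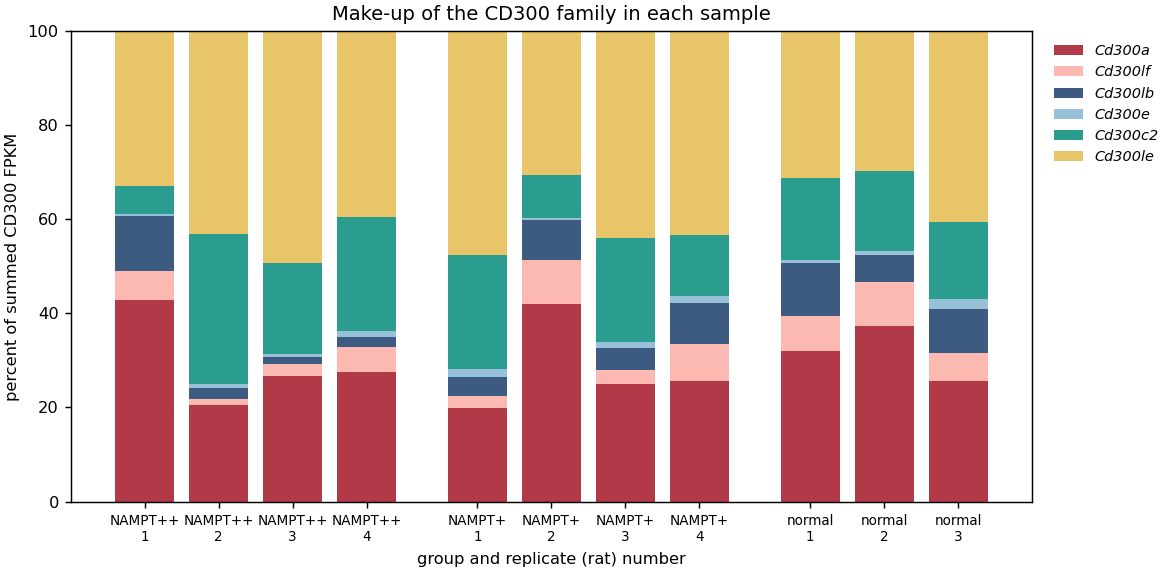
Percent of the summed CD300 FPKM (vertical axis) that each of 6 members took in each of the 11 samples (horizontal axis, by group and replicate). Rat 1 at NAMPT++ status and rat 2 at NAMPT+ status have the largest shares of Cd300a, 42.9 and 41.9%, and the smallest shares of Cd300c2, 5.98 and 9.25%.

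To see how the members differed between the 2 statuses, NAMPT+ samples were compared with NAMPT++ samples by edgeR's quasi-likelihood test. It covered all genes whose mean FPKM reached 1, a filter that 6 of the 7 members passed. This fit did not pair the 2 samples of a rat. The call needed a ratio of mean FPKM over 2 or under 0.5 with an unadjusted p under 0.05, the thresholds of the study. Of the members 0 were called, against 0.642% of the 11219 genes tested. The log2 fold changes were -0.42 (SE 0.35) for Cd300a, 0.31 (0.61) for Cd300lf, 0.14 (0.68) for Cd300lb, 0.39 (0.45) for Cd300e, -0.64 (0.45) for Cd300c2 and -0.39 (0.20) for Cd300le. The lowest unadjusted edgeR p among them was 0.083, for Cd300le. With the rat as a block the log2 fold changes were -0.44, 0.22, 0.73, 0.34, -0.52 and -0.37 in the same order. The lowest unadjusted edgeR p was then 0.15, again for Cd300le. All 6 members overlapped between the statuses, as did all but 0.41% of genes. Across all genes 0 passed an adjusted p of 0.05 in edgeR, 256 (2.28%) had an unadjusted p under 0.05, and DESeq2 gave 5 adjusted calls (0.0446%), none of them a member. Within rats, Cd300a and Cd300c2 were lower at NAMPT+ status in 3 of 4, and so was Cd300le, though in 2 of 4 after rescaling. Without the NAMPT++ sample of rat 1, 1 member was called, Cd300lb, higher at NAMPT+ status by a log2 fold change of 1.36, while the calls over all genes went from 72 to 103.

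NAMPT++ samples were then compared with controls. By the same rule 1 of the 5 members tested was called, Cd300le, which was 2.38 times as high in mean FPKM at NAMPT++ status and 2.20 times after rescaling, with a log2 fold change of 1.20 (SE 0.30). Its unadjusted edgeR p was 0.0039 and its adjusted p 1.00. In this comparison 0.686% of 11219 genes were called and 0.33% of the 11219 were called higher at NAMPT++ status. Groups did not overlap for 1.1% of the genes tested, and 0.633% of those tested were higher at NAMPT++ status without overlap. Across all genes 0 passed an adjusted p of 0.05 in edgeR, 176 (1.57%) had an unadjusted p under 0.05 and DESeq2 gave 5 adjusted calls (0.0446%), none a member. Cd300c2 was 2.20 times as high in mean FPKM, with a log2 fold change of 1.07 (0.53) and an unadjusted edgeR p of 0.081, so it was not called. DESeq2 and limma, which by the fold and p rule called 1.08% and 1.29% of genes, called Cd300le and Cd300c2, 2 members each. The log2 fold change was 0.67 (0.46) for Cd300a, -0.29 (0.62) for Cd300lf and 0.03 (0.72) for Cd300lb. Cd300e fell under the FPKM filter here and Cd300lg had no reads. One sample on either side changed these counts. Without rat 1 at NAMPT++ status 3 members were called, Cd300lb lower (log2 fold change -1.20) and Cd300c2 and Cd300le higher, and without control 2 the 3 called were Cd300a, Cd300c2 and Cd300le, all higher. Calls over all genes went from 77 to 86 in the first of these fits and to 462 in the second, so the count of members without control 2 stands beside a general rise in calls. Cd300le was called whichever single sample was left out, at log2 fold changes between 1.02 and 1.52.

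NAMPT+ samples were compared with the same 3 controls, so this comparison is not independent of the last. Of the 6 members tested 0 were called, against 0.497% of 11269 genes. Cd300le had a log2 fold change of 0.79 (SE 0.25) with an unadjusted edgeR p of 0.013, but its ratio of 1.83 in mean FPKM missed the threshold. It was called without rat 2 at NAMPT+ status, at a log2 fold change of 0.86, while the calls over all genes went from 56 to 75. The log2 fold change was 0.79 (0.56) for Cd300e, 0.41 (0.38) for Cd300c2, 0.24 (0.47) for Cd300a, 0.15 (0.38) for Cd300lb and 0.00 (0.64) for Cd300lf. Cd300e averaged 0.779 FPKM in controls and passed the filter only through its NAMPT+ values. All members overlapped between the groups, as did all but 0.444% of genes. Across all genes 0 passed an adjusted p of 0.05 in edgeR, 98 (0.87%) had an unadjusted p under 0.05, and DESeq2 gave 4 adjusted calls (0.0355%), none a member.

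**Figure D3:**
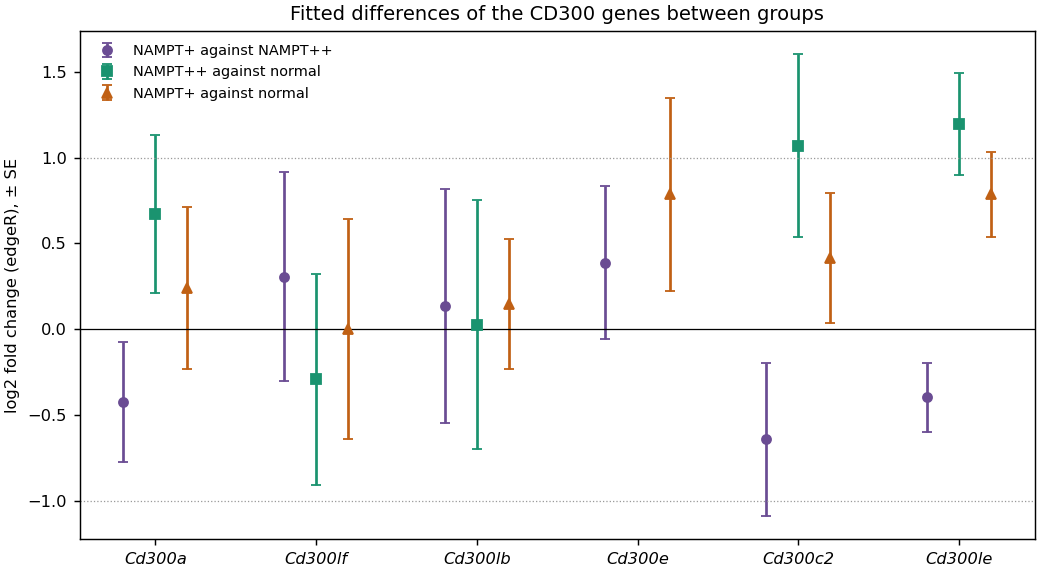
Log2 fold change from edgeR (vertical axis) with its standard error for each detected member in the 3 comparisons, dotted lines marking a change of 1 in either direction. Cd300le at NAMPT++ status against controls (1.20) is the member furthest above 0, and Cd300e has no point in that comparison because it was under the FPKM filter.

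The members did not vary as one over the samples, as the heat map of correlations shows. On a scale of log2(rescaled FPKM + 1) over 11 samples, Cd300le and Cd300c2 had a Pearson r of 0.72, Cd300e and Cd300c2 0.56, and Cd300le and Cd300e 0.50. Cd300lb and Cd300lf had an r of 0.61 and Cd300a and Cd300lf 0.49. Cd300a had an r of 0.36 with Cd300le and 0.28 with Cd300lb, which became -0.13 and 0.57 with the group means taken out. Cd300lb and Cd300c2 ran in opposite directions with an r of -0.77 and a Spearman rho of -0.85, and Cd300lf and Cd300c2 with an r of -0.66. On that scale without group means, the r of Cd300lb and Cd300c2 was -0.76 and that of Cd300le and Cd300c2 0.72. With group means left in but without rat 1 at NAMPT++ status, the r of these pairs was -0.70 and 0.84, but that of Cd300a and Cd300lb went from 0.28 to -0.13. These are descriptions, since the 2 statuses share their rats and all values of a sample share a library and its make-up of cells.

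**Figure D4:**
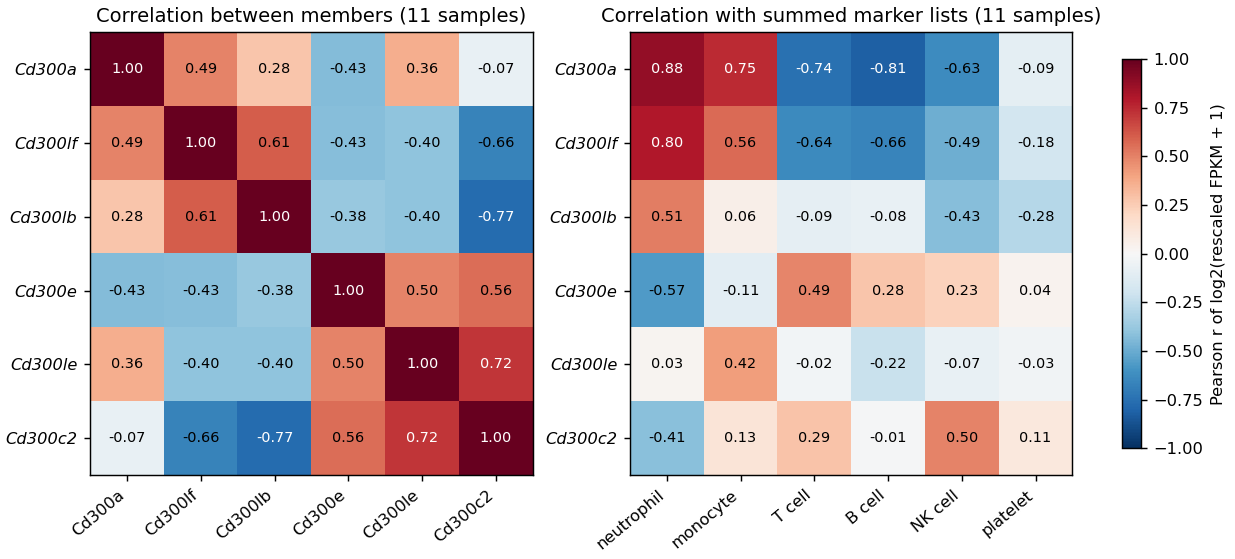
Pearson r over 11 samples on the log2(rescaled FPKM + 1) scale between members (left) and between members and the summed level of marker lists (right); red is positive and blue negative. Cd300lb, Cd300lf and Cd300a are positive among themselves, Cd300e, Cd300le and Cd300c2 likewise, and Cd300a is positive with neutrophil markers (0.88) and negative with B cell markers (-0.81).

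Neutrophil and other marker lists moved with the members, and their part in the levels was not tested. All 14 neutrophil markers were found, with Mpo and Ltf under 1 FPKM on average, and their summed rescaled FPKM ranged from 5303 to 45319 at NAMPT++, from 5685 to 29104 at NAMPT+ and from 2869 to 22110 in controls, highest in rat 1 at NAMPT++ status. Cd300a had an r of 0.88 with this sum and Cd300lf of 0.80, while Cd300lb had 0.51, Cd300le 0.03, Cd300c2 -0.41 and Cd300e -0.57. S100a9 alone made up 61.2% of the sum, but Cd300a was positive with 13 of the 14 markers singly (median r 0.81), and so were Cd300lf (median r 0.75) and Cd300lb (median r 0.45). Of 12 monocyte markers 10 were found, with sums of 9250 to 16225, 7446 to 16367 and 5167 to 15601 in the 3 groups. Lyz2 made up 94.9% of that sum. That sum had an r of 0.75 with Cd300a, 0.56 with Cd300lf, 0.42 with Cd300le, 0.13 with Cd300c2, 0.06 with Cd300lb and -0.11 with Cd300e. Taken singly, 9 of the 10 monocyte markers were positive with Cd300c2 (median r 0.56, Cd68 0.87, Adgre1 0.86) and 9 with Cd300le (median r 0.39), and 8 with Cd300e (median r 0.50), against 2 with Cd300lb (median r -0.62) and 3 with Cd300lf (median r -0.40). With Cd300a 4 of the 10 were positive (median r -0.30), from -0.51 for Adgre1 to 0.92 for Fcgr1a, the high-affinity IgG receptor. Summed T cell markers had an r of -0.74 and summed B cell markers of -0.81 with Cd300a. Monocyte markers were not the only ones positive with Cd300c2 and Cd300e. With Cd300c2, Cd300e and Cd300le, summed dendritic cell markers had an r of 0.60, 0.69 and 0.25. Of these 7 markers 3 were under 1 FPKM on average. For NK cell markers the values were 0.50, 0.23 and -0.07, and for T cell markers 0.29, 0.49 and -0.02.

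**Figure D5:**
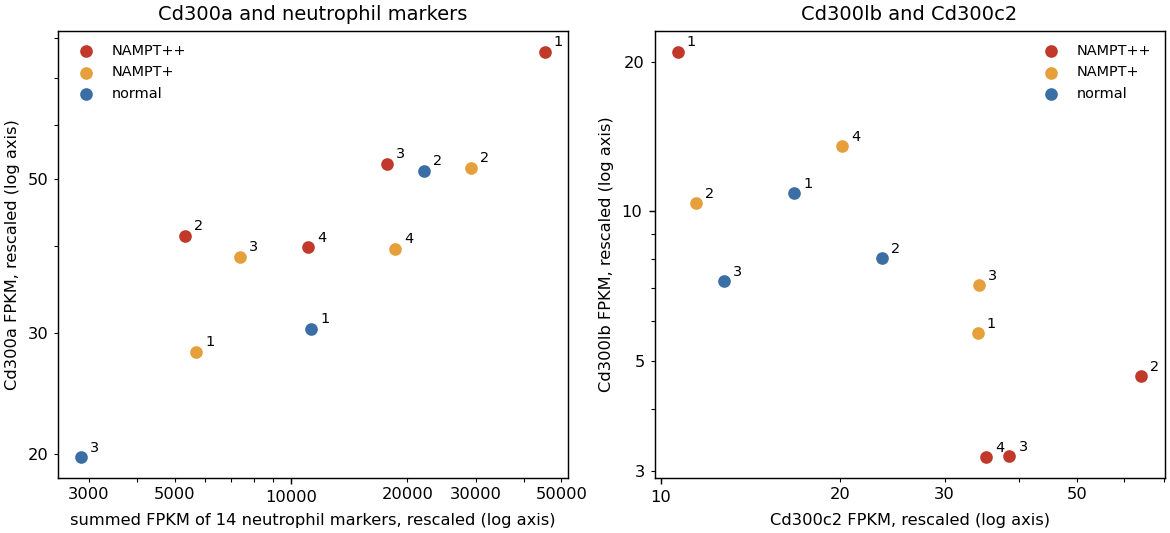
Left, rescaled FPKM of Cd300a against the summed rescaled FPKM of 14 neutrophil markers; right, rescaled FPKM of Cd300lb against that of Cd300c2 (all axes logarithmic). Points are the 11 samples, coloured by group and numbered by replicate, with r of 0.88 on the left and -0.77 on the right.

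Single genes whose pattern over the 11 samples was most like that of a member were found among the 11228 whose mean FPKM over all samples reached 1, by the same r. For Cd300a these were Atp6v0c, Mgst1 and Gde1 (r 0.95 each), and for Cd300lf Zcchc12 (0.92), Tcn2 and Pdzd3 (0.89 each). For Cd300lb they were AABR07005779 (0.94), Lrrk2 and Selplg (0.91 each), and for Cd300e Hira (0.91), AABR07048397 (0.90) and LOC691918 (0.88). Cd300c2 was most like Rabep1 (0.95), Kcna3 (0.94) and the macrophage lysosomal protein gene Cd68 (0.87). Cd300le had no pattern as close, its nearest being Selenon (0.83), Tnfsf13 (0.81) and Gpr137b (0.79). With 11 samples and 11228 genes some high r can arise by chance, and these likenesses were not tested.

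Both adaptors of the activating members were abundant. Tyrobp, the DAP12 adaptor, stood at 1172 ± 536 FPKM at NAMPT++ status, 837 ± 231 at NAMPT+ status and 698 ± 373 in controls, and Fcer1g at 943 ± 415, 740 ± 143 and 580 ± 184 FPKM. Neither was called. Of the 19 partners listed 18 were tested, and 1, the kinase Syk, was called, lower at NAMPT+ status than at NAMPT++ status (log2 fold change -1.67, SE 0.33) and lower than in controls (-1.58, SE 0.43). Its means were 39.9 ± 14.4 at NAMPT++, 12.6 ± 5.35 at NAMPT+ and 34.0 ± 15.1 FPKM in controls, and both edgeR adjusted p values were 1.00. Between NAMPT++ samples and controls 0 of the 18 were called. Over all genes 0.642% were called at NAMPT+ against NAMPT++, 0.686% at NAMPT++ against controls and 0.497% at NAMPT+ against controls. The median log2 fold change of the partners was -0.11 at NAMPT+ against NAMPT++, 0.10 at NAMPT++ against controls and 0.08 at NAMPT+ against controls, beside 0.00 for all genes tested in each comparison.

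Other receptors of the same kind showed 0 calls in the 3 comparisons. Beside 0.642, 0.686 and 0.497% of all genes called, that count says nothing particular about them. Of 30 other paired or ITIM- and ITAM-linked myeloid receptors 23 were tested, with median log2 fold changes of 0.05, 0.30 and 0.30 in the same order. The most abundant were Clec7a, the beta-glucan receptor, at 354 ± 197, 248 ± 115 and 200 ± 165 FPKM in the 3 groups, and Lilrb4, an inhibitory receptor, at 217 ± 111, 153 ± 70.4 and 169 ± 116 FPKM. Of 21 other receptors and bridging proteins for phosphatidylserine and lipids 8 were tested, with medians of -0.24, 0.20 and 0.08. Anxa1 and Anxa5, annexins that bind phosphatidylserine, led this list with 410 ± 335 and 38.2 ± 16.6 FPKM at NAMPT++ status, while Mertk, Axl, Tyro3 and Gas6 were under 1 FPKM on average. Among the marker lists, the basophil and mast cell genes Ms4a2, Mcpt8l2 and Mcpt8l3 were called higher at NAMPT+ than at NAMPT++ status. Their levels were low and varied between rats, at 2.34 ± 2.07, 12.1 ± 10.4 and 10.5 ± 9.29 FPKM at NAMPT+ status. Ms4a2 stood at 0.565 ± 0.284 FPKM at NAMPT++ status and passed the filter only through its NAMPT+ values. Ppbp of platelets and Mcpt8l2 were called lower at NAMPT++ status than in controls, and Gzma of NK cells lower at NAMPT+ status than in controls. None of these passed an edgeR adjusted p of 0.05. Markers of neutrophils, monocytes, T cells, B cells, dendritic cells, eosinophils and erythroid cells had 0 calls in the 3 comparisons. Few genes were called at all, so 0 calls does not show an equal make-up of cells. At NAMPT++ status against controls the median log2 fold change was 0.69 for neutrophil, 0.38 for monocyte and -0.10 for T cell markers. It was -0.43 for B cell, -0.89 for NK cell, -0.05 for dendritic cell, -0.49 for eosinophil and -0.42 for erythroid markers. The median of all genes was 0.00.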

How the data were processed

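WBC RNA of 11 rat samples was compared. Per the labels, reads were handled with cutadapt 1.9, HISAT2 2.0.4 and StringTie 1.3.4. The authors deposited raw counts per gene, which are not normalized, and FPKM for the same genes, with 0.0001 written for 0. How reads were counted is not given in the sources used here. Members and gene lists were chosen with earlier results of these data known.

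Counts of all genes whose mean FPKM reached 1 were fitted a pair of groups at a time with edgeR 4.0.16 (TMM, quasi-likelihood F test, R 4.3.3), with Benjamini-Hochberg adjustment over all genes tested. limma 3.58.1 on log2(FPKM + 1) and DESeq2 1.42.0 were alternatives. The procedure was tested on simulated counts. These were drawn independently for each sample, so they do not show how it fares with shared rats or shifts in cell make-up. Named genes are the members, genes placed among them, the 3 genes with the highest r to each member, and, from each list, those called and the 2 of highest mean FPKM. RefSeq symbols matched 7 of 7 members, and promoters were found for 5. NAMPT++ and NAMPT+ samples with one number come from one rat. Over genes, their deviations from the means of their groups had correlations of -0.27, -0.24, 0.23 and 0.09 for rats 1 to 4. Replicates of one group differed beyond counting error, the lowest chi-square divided by its degrees of freedom being 271. Depth was 65340027 to 85819418 counts, so the number of rats limits the precision.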

Additional observations from a re-analysis of the deposited data

Results flagged for a closer look

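Among the 12 sets of 4 samples examined (6 members at each status of the CIA rats), 2 held a sample that stood apart from its group by Dixon's criterion, which chance alone passes in about 1 of 20 sets. Cd300lb at NAMPT++ status was 19.6 FPKM in rat 1 and 2.56 to 2.94 FPKM in the other 3 rats. Cd300le at NAMPT++ status was 77.6 FPKM in rat 3 and 52.6 to 54.6 FPKM in the others.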

How the results depend on the processing

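The number of members called was 0 at NAMPT+ against NAMPT++, 1 at NAMPT++ against controls and 0 at NAMPT+ against controls. In the comparison of NAMPT++ samples with controls it became 2 with DESeq2 and 2 with limma on log2(FPKM + 1) (Cd300le and Cd300c2), and 0 with an adjusted p under 0.05 as the rule. Leaving out each sample in turn gave 0 to 1, 1 to 3 and 0 to 1 members in the 3 comparisons. With the replicate number as a block, which pairs the samples of one rat in the first comparison and is only a number against controls, 0, 1 and 0 members were called, so the pairing changed no call of a member. Upper quartile scaling, leaving out haemoglobin genes, a mean FPKM of at least 10, no filter, a pseudocount of 0.1, one fit of all groups and the fold from the fitted change left these numbers as they were. The number of all genes called moved more, from 72, 77 and 56 to 295, 306 and 261 without a filter, to 19, 25 and 14 at a mean FPKM of at least 10, and to between 58 and 165, 53 and 462, and 49 and 136 when a sample was left out. Over 17 fold changes of members and 269 alternatives, 267 moved the value by less than the spread between replicates, 2 (Cd300lb without rat 1 at NAMPT++ status, 1.36 and -1.20) by more, and 29 gave the opposite sign for a change that was not called. That spread is the SD of single samples within a group, a wide bar for a fold change. Cd300a at NAMPT++ against controls stayed within it, though it went from 0.67 to between 0.34 and 1.31 when a sample was left out. The causes were not tested. DESeq2 gave no p for Cd300lb at NAMPT++ against controls. Adjusted p values of edgeR were near 1 throughout, so the calls rest on unadjusted p.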

Other observations

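RefSeq symbols placed 1 further CD300 gene in the deposited table under another name. LOC100909671, listed as Cd300cl1 in RefSeq, had 13 to 168 reads per sample, or 0.128 to 1.86 FPKM. It was lowest in rat 1 at NAMPT++ status, at 0.128 FPKM, and in rat 2 at NAMPT+ status, at 0.157 FPKM, the same 2 samples in which Cd300c2 was lowest. RGD1562667, a neighbour described as like a leukocyte mono-Ig-like receptor, ranged from 1.61 to 27.4 FPKM, with the highest value in control 1. By the fold and p rule RGD1562667 was called lower at NAMPT+ status than in controls (4.17 ± 1.89 against 13.2 ± 12.7 FPKM, log2 fold change -1.64, SE 0.63, edgeR unadjusted p 0.032, adjusted p 1.00). It was not called at NAMPT++ status against controls (-1.55, SE 0.84) or at NAMPT+ against NAMPT++ status (-0.09, SE 0.58). Both genes were chosen after their values were seen.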
